A study of Homo sapiens with 4 samples.

Results

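The genes that write, maintain and remove cytosine methylation were followed through an acute loss of the transcription elongation factor IWS1. The set was defined by name as 9 genes: *DNMT1*, *DNMT3A*, *DNMT3B*, *TET1*, *TET2*, *TET3*, *UHRF1*, *UHRF2* and *TDG*. Of the 10147 genes listed in the table, 7 are members, and reads could be recovered for all 7. *DNMT3A* and *UHRF1* have no row in the table used here and were not analysed here.

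The data came from K562 cells, a human chronic myelogenous leukemia line, edited so that the endogenous IWS1 protein carries an N-terminal degradation tag (dTAG). Control cells received the solvent DMSO and dIWS1 cells received 500 nM dTAG7, the ligand that sends the tagged protein to degradation, both for 1 h. RNA made during a pulse of 5 min with 500 µM 4-thiouridine (4sU) was then isolated and sequenced (TT-seq), with 2 libraries in each group and synthetic spike-in RNAs in every lysate. Both groups carry the tag, so cells with untagged IWS1 are not part of the comparison, and the edited cells were selected as clones.

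DNA methylation in human cells sits mainly on cytosines of CpG dinucleotides. DNMT3A and DNMT3B place methyl groups on unmethylated DNA, while DNMT1, guided by UHRF1 to half-methylated CpGs, copies the pattern after replication. The TET enzymes oxidize 5-methylcytosine, and the glycosylase TDG excises the more oxidized forms, which base excision repair then replaces with unmodified cytosine. In blood cells *TET2* is known as a frequent target of mutation in leukemia. TT-seq measures synthesis of the transcripts over a short time and does not measure methylation, protein or the amount of mature mRNA.

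The promoter DNA of these genes is shown because CpG density is the property on which the encoded enzymes act, and because it differs widely between the members. Each line gives the 250 bases in front of the transcription start site, 5′ to 3′ on the strand of the gene, from RefSeq (GRCh38.p14), with every CpG in capitals. *DNMT1* (chr19:10194954-10195203, minus strand), *TET1* (chr10:68560087-68560336, plus strand) and *TDG* (chr12:103965622-103965871, plus strand) were picked because they span the range of changes in synthesis described later and because their windows abut the 5′ end of the gene.
DNMT1: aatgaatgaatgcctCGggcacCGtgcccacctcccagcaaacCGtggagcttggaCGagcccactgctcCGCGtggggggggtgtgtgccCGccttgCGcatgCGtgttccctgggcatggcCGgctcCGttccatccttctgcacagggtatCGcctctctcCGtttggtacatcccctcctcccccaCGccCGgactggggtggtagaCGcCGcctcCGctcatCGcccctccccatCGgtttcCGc
TET1: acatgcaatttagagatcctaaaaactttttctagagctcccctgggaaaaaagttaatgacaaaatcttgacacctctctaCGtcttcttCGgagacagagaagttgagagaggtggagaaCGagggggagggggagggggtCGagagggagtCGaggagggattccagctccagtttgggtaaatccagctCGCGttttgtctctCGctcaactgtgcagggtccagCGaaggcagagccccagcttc
TDG: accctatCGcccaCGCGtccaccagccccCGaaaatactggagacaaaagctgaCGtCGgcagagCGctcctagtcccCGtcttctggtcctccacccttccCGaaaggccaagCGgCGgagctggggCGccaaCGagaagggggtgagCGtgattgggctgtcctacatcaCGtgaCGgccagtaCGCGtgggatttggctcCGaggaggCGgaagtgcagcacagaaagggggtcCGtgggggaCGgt

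The *DNMT1* window holds 21 CpGs and the *TDG* window 22, against 9 in the *TET1* window. Across all 35116 promoter windows in RefSeq the median was 11 CpGs (quartiles 3 and 23). Of the others, the *TET3* window had 37 CpGs, more than 96.0% of all windows, the *UHRF2* window 23 and the *TET2* window 10. The *TET3* start site used lies 1279 bp inside the 5′ end of the gene span. The *DNMT3B* window had 3 CpGs, but its start site lies 17467 bp inside the gene span, so it describes an internal start. A link between CpG count and the change in synthesis was not tested. Among the TET genes, the log2 ratios (dIWS1/control) given later were −0.77 for *TET1* (9 CpGs), −0.35 for *TET2* (10 CpGs) and −0.56 for *TET3* (37 CpGs). A search of both strands for 5 short motifs, chosen after the windows were seen, found the E-box CACGTG in the windows of *TET2*, *TET3* and *TDG* (6.34% of all windows hold it). GGGCGG was present in *UHRF2* and *TET3* (42.6% of windows) and CCAAT in *DNMT3B* and *TDG* (32.0% of windows). TATAAA (10.7% of windows) and GCGCGAAA (0.439% of windows) were in none of the 7. These are letter matches in 1 window per gene and not binding sites.

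The deposited table, which holds genes over an expression threshold, gives a mean normalized count over the library columns rather than a value per library. Every such mean adds up integer read counts, each weighted by its library's size factor, and solving for those integers gave 1 control column and 2 different dIWS1 columns. The control column entered the mean with the weight of 2 equal columns and was counted once. Which of the 2 control libraries it holds is not known, so 1 control library may not be represented in any ratio given here. The spread between replicates is therefore known only for dIWS1, and the control is assumed to vary to the same extent. The columns held 29069968 (control), 20145803 (dIWS1 column 1) and 20373592 (dIWS1 column 2) reads in genes, with spike-in size factors of 1.010, 0.993 and 0.919. The dIWS1 columns carry no replicate number. Across the 10126 genes tested, log2 ratios (dIWS1/control) had quartiles of −0.60 and −0.26 around a median of −0.43, and 96.4% of them were negative. In bulk RNA, fewer labelled cells and less new RNA per cell cannot be told apart. The erythroid markers that K562 cells are known for were all listed (10 of 10), and of 8 markers of other cell types only *LYZ* was, with 38 to 60 reads per column. *IWS1* itself had 3684 control reads against 2334 and 2427 dIWS1 reads (log2 ratio −0.55 ± 0.15 (SE), adjusted p = 0.000784, limma with Benjamini-Hochberg adjustment), which measures synthesis of its transcript and not depletion of the protein.

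Levels were first compared within the control column, as reads divided by the size factor and by the gene span in kilobases. *TDG* (119.6 reads per kb), *DNMT1* (119 reads per kb) and *DNMT3B* (118 reads per kb) stood highest, and their counting intervals overlapped. The TET genes followed with 67.9 reads per kb for *TET2*, 60.6 for *TET3* and 54.9 for *TET1*. *UHRF2* was lowest with 32.2 reads per kb. The 95% counting intervals of these 4 genes did not overlap one another (66.5 to 69.3, 59.4 to 61.9, 53.6 to 56.1 and 31.0 to 33.3 reads per kb), though they cover counting error only and the control has no second column. In dIWS1, *DNMT1* left the leading group: it had 77.0 and 92.3 reads per kb in the 2 columns, against 98.2 and 108 for *DNMT3B* and 100.01 and 108 for *TDG*. The order of the other 4 genes was the same in both dIWS1 columns as in the control.

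**Figure D1:**
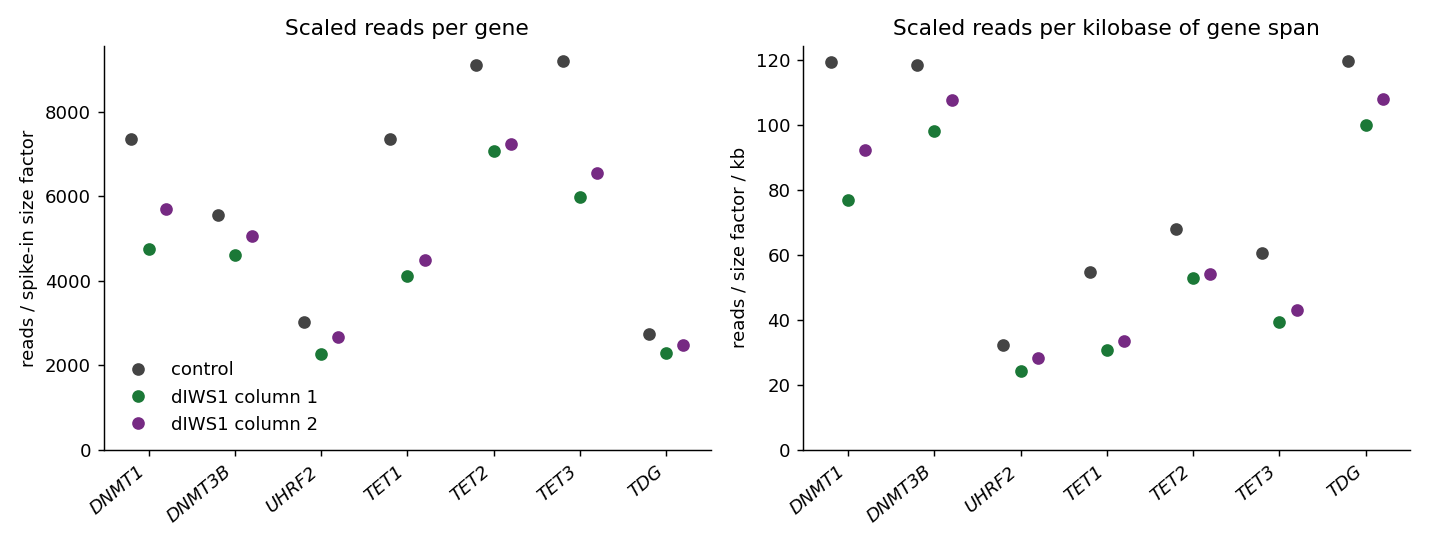
Scaled reads of the 7 listed genes in the control column and both dIWS1 columns, per gene (left, reads divided by the spike-in size factor) and per kilobase of RefSeq gene span (right). Each point is 1 recovered column, and both dIWS1 points lie below the control point for all 7 genes under this spike-in scaling. Over all genes tested, 96.4% had a negative log2 ratio.

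All 7 genes had fewer scaled reads in both dIWS1 columns than in the control column, where 96.4% of all genes tested had a negative log2 ratio. With spike-in scaling, 4 of the 7 were called lower (*DNMT1*, *TET1*, *TET2* and *TET3*), 0 were called higher and 3 were not called (*DNMT3B*, *UHRF2* and *TDG*). The background was 64.4% of all genes called lower and 0.109% called higher, so the members' share of 57.1% lies near that of genes in general. No member had an unadjusted p under 0.05 in the higher direction, since every member's estimate was below 0. Their median log2 ratio was −0.35, beside −0.43 for all genes, with a range from −0.77 (*TET1*) to −0.20 (*DNMT3B*). Because the median gene moved by this much, each ratio is given below also relative to the median gene, with each dIWS1 column recentred on its own median over the 8890 genes with a mean of at least 100 (−0.47 for column 1 and −0.36 for column 2). This recentring was added after the values were seen. Under it 5.32% of all genes were called lower and 3.25% higher, and of the members 1 was lower (*TET1*), 0 were higher and 6 were not called. The planned recentring on 1 common median called 0 of the 7, *TET1* included (log2 ratio −0.36, adjusted p = 0.117, limma with Benjamini-Hochberg adjustment).

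**Figure D2:**
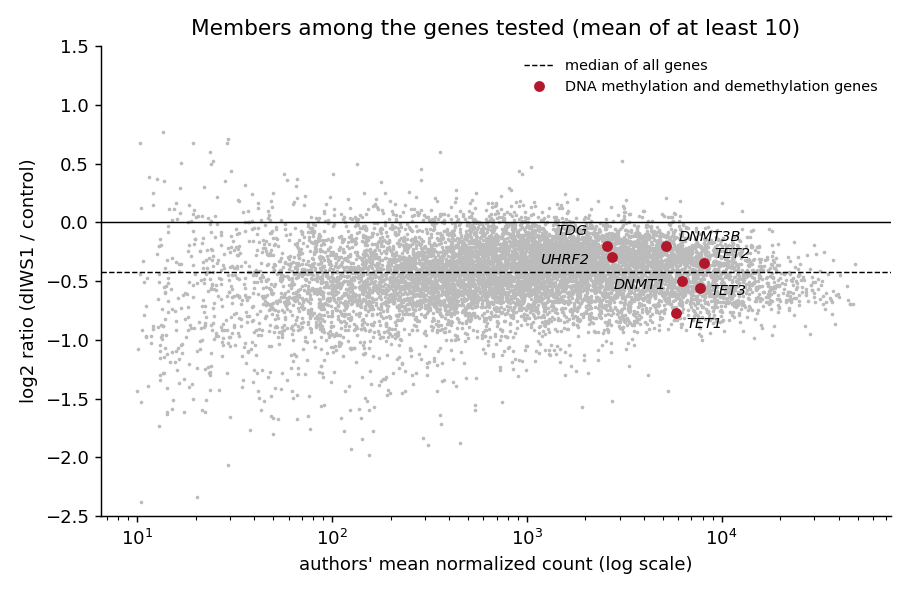
Log2 ratio (dIWS1/control, spike-in scaling) against the authors' mean normalized count (log scale) for the 9907 tested genes with a mean of at least 10, of which 6 lie beyond the vertical axis. The 7 members, in red, lie within the cloud of all genes, with *TET1* lowest at −0.77, and the dashed line marks the median of all genes at −0.43.

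Among the methyltransferases, *DNMT1*, the maintenance enzyme, lies on chr19:10133346-10194953 (minus strand) and spans 61608 bp. Its reads numbered 7425 in control and 4712 and 5228 in dIWS1 columns 1 and 2. Both dIWS1 columns were below the control, as for every member, at 64.5% and 77.3% of it after scaling. The log2 ratio was −0.50 ± 0.15 (SE, 2 dIWS1 columns), called lower (adjusted p = 0.00210, limma with Benjamini-Hochberg adjustment). The 2 dIWS1 columns of *DNMT1* differed by 0.26 on the log2 scale, the widest gap among the members, where the median gap over genes was −0.12 (column 1 minus column 2) with an SD over genes of 0.13. Recentring brought *DNMT1* to −0.09, which was not called (adjusted p = 0.463, limma).

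*DNMT3B*, a de novo methyltransferase, lies on chr20:32762385-32809356 (plus strand) and spans 46972 bp. It had 5611 control reads and 4583 and 4656 dIWS1 reads. Its dIWS1 columns were at 83.03% and 91.1% of the control after scaling, below it in both but close to it. The log2 ratio of −0.20 ± 0.15 (SE) was not called (adjusted p = 0.217, limma with Benjamini-Hochberg adjustment; 95% interval −0.50 to 0.09). Against the median gene its direction turned, to 0.21 with values of 0.20 and 0.23 in the 2 columns, and it was again not called (adjusted p = 0.0666, limma). Scaling by total reads called *DNMT3B* higher (log2 ratio 0.24, adjusted p = 0.0156, limma).

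*UHRF2*, a relative of the DNMT1 partner UHRF1 with a domain that binds modified cytosine, lies on chr9:6413199-6507054 (plus strand) and spans 93856 bp. Its reads were 3048 in the control column and 2262 and 2447 in the dIWS1 columns, or 75.4% and 88.2% of the control after scaling. Both columns were below the control, but the log2 ratio of −0.29 ± 0.15 (SE) was not called (adjusted p = 0.0707, limma with Benjamini-Hochberg adjustment). Recentring placed *UHRF2* at 0.12 (adjusted p = 0.292, limma), so its direction also depends on the scaling.

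Of the demethylation genes, *TET1*, whose product is a 5-methylcytosine dioxygenase with a CXXC zinc finger, had the lowest ratio of all members. It lies on chr10:68560337-68694487 (plus strand) and spans 134151 bp. It had 7430 reads in the control column and 4085 and 4135 in the dIWS1 columns. These were 55.9% and 61.1% of the control after scaling, both below it. The gap between the 2 dIWS1 columns was −0.13 on the log2 scale (column 1 minus column 2), where the median gap over genes was −0.12. The log2 ratio was −0.77 ± 0.15 (SE), called lower (adjusted p = 2.49e-06, limma with Benjamini-Hochberg adjustment). Of all genes tested, 10.4% had a lower ratio, and of the 2519 longest genes, a class that includes *TET1*, 9.01% did. Relative to the median gene the ratio was −0.36 (−0.37 and −0.35 in the 2 columns), and it was called lower after each column was recentred on its own median (adjusted p = 0.0403, limma) but not after the planned common recentring given above. Scaling by total reads also called it lower (adjusted p = 0.00544, limma).

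*TET2*, which lacks the CXXC domain and is mutated in many myeloid neoplasms, lies on chr4:105145875-105279803 (plus strand) and spans 133929 bp. Its reads were 9181 in the control column and 7016 and 6655 in the dIWS1 columns. Both dIWS1 columns were below the control, at 77.7% and 79.6% of it after scaling. The log2 ratio of −0.35 ± 0.15 (SE) was called lower (adjusted p = 0.0318, limma with Benjamini-Hochberg adjustment). That call was lost with an offset of 1 read and no weights (adjusted p = 0.0981, limma), and relative to the median gene the ratio was 0.07 (adjusted p = 0.440, limma).

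*TET3*, the TET enzyme known for its role in the zygote, lies on chr2:73983631-74135498 (plus strand) and spans 151868 bp, the longest of the members. Its reads fell from 9295 in the control column to 5939 and 6018 in the dIWS1 columns, or 64.95% and 71.1% of the control after scaling. Both dIWS1 columns were below the control, as for every member. The log2 ratio was −0.56 ± 0.15 (SE, adjusted p = 0.000598, limma with Benjamini-Hochberg adjustment). Recentred on the median gene, *TET3* stood at −0.14 and was not called (adjusted p = 0.117, limma).

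*TDG*, the thymine DNA glycosylase that removes formylcytosine and carboxylcytosine, lies on chr12:103965872-103988874 (plus strand) and at 23003 bp is the shortest of the members. It had 2777 control reads and 2285 and 2281 dIWS1 reads, or 83.6% and 90.2% of the control after scaling. The log2 ratio of −0.20 ± 0.15 (SE) was not called (adjusted p = 0.208, limma with Benjamini-Hochberg adjustment; 95% interval −0.49 to 0.09). Recentring placed *TDG* at 0.21 in both columns and not called (adjusted p = 0.0712, limma), whereas scaling by total reads called it higher (log2 ratio 0.24, adjusted p = 0.0207, limma).

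**Figure D3:**
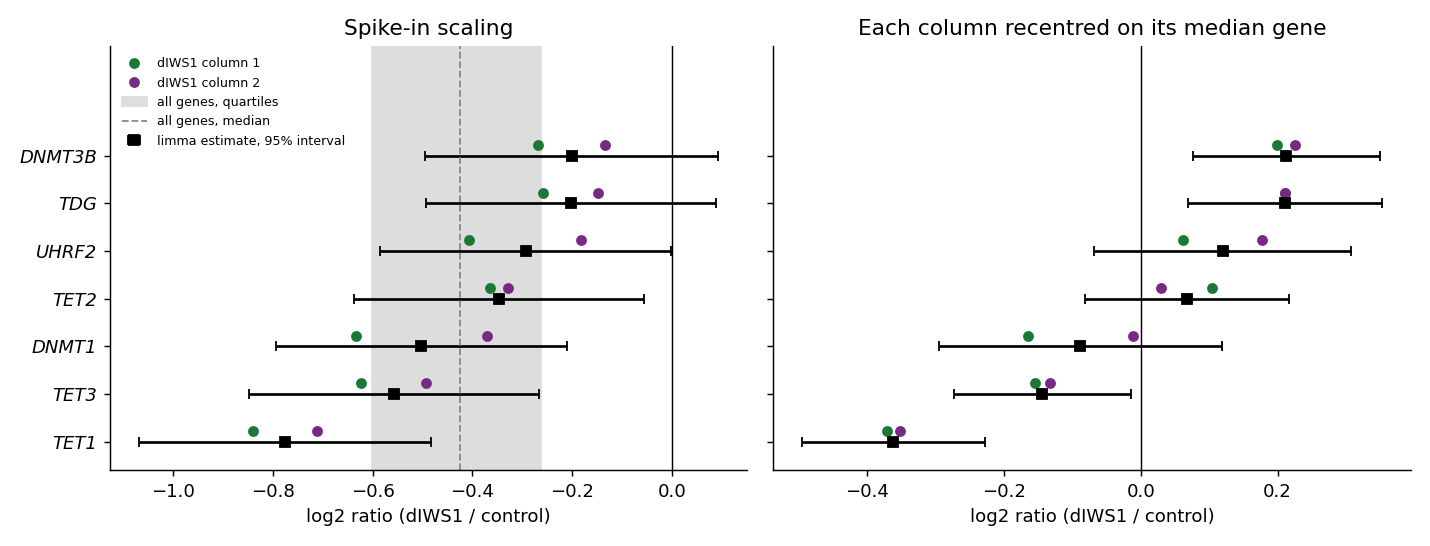
Log2 ratio (dIWS1/control) of each member with spike-in scaling (left) and after each dIWS1 column was recentred on its own median gene (right). Black squares with bars are limma estimates with 95% intervals not adjusted for the number of genes, coloured points are the 2 dIWS1 columns, and the grey band and dashed line give the quartiles and median of all genes; *DNMT3B*, *TDG*, *UHRF2* and *TET2* change sign between the panels, while *TET1* is lowest in both.

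The standard errors with spike-in scaling were all close to 0.15 because limma shares the spread across genes. *DNMT1*, whose dIWS1 columns differed by 0.26, had an SE of 0.149, and *TET2*, whose columns differed by 0.04, had 0.148. The offset between the dIWS1 columns is part of that shared spread. The median SE over genes with a mean of at least 100 was 0.14, and 0.07 once each column was recentred on its own median. Column 1 was the lower of the pair for 7 of 7 members, where the median gap over genes was −0.12 (column 1 minus column 2, SD 0.13). Counting error was far smaller than these standard errors, at most 0.04 on the log2 scale for any member and column. The ratio of reads of 2 genes in the same column does not depend on the scaling, and the pairs that follow were chosen after the values were seen, so they are given without a test. *TET1* had 1.32 reads for each *DNMT3B* read in the control column, and 0.891 and 0.888 in the dIWS1 columns. Per *TDG* read it had 2.68 in the control and 1.79 and 1.81 in dIWS1, and per *TET2* read 0.809, then 0.582 and 0.621. Per *DNMT1* read, *TET1* had 1.00 in the control and 0.867 and 0.791 in dIWS1. *TET1* had the lowest log2 ratio of the members in both dIWS1 columns, so its reads fall against any other member by that choice. For *DNMT1* over *DNMT3B* the ratio went from 1.32 in the control to 1.03 and 1.12, and for *TET3* over *TET2* from 1.01 to 0.846 and 0.904. The reads of the 3 TET genes summed were 1.99 times those of *DNMT1* and *DNMT3B* summed in the control column and 1.83 and 1.70 times in the dIWS1 columns. These sums are not divided by gene span, and the TET genes are the longer ones. Per kb, each TET gene was below both methyltransferase genes in the control column (54.9 to 67.9 against 118 and 119 reads per kb).

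Genes were also placed in 4 length classes of equal size, for a comparison with genes of similar span. Over all genes the median log2 ratio was −0.49 in the shortest class of genes (under 10.4 kb), −0.39 in the next (to 27.1 kb), −0.34 in the next (to 63.2 kb) and −0.49 in the longest. *TET1*, *TET2*, *TET3* and *UHRF2* all belong to the longest class, yet their log2 ratios spread from −0.77 to −0.29. Within this class 72.3% of genes had a lower ratio than *TET2*, 79.95% a lower one than *UHRF2* and 37.5% a lower one than *TET3*.

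Genes around the methylation cycle were counted from 6 lists. Of 58 genes listed by name, 50 had reads, and of these 32 were called lower (64.0%, beside 64.4% of all genes), 0 higher and 18 not called, with a median log2 ratio of −0.42. Relative to each column's median gene, 5 of the 50 were lower and 4 higher, where 5.32% of all genes were lower and 3.25% higher. The genes named for their place in these counts, other than the highest and lowest of each list, were chosen after their values were seen.

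Of 8 readers of methylated DNA, 7 were lower and 1 was not called, with a median log2 ratio of −0.52. *MBD4*, a methyl-CpG binding glycosylase, was highest at 0.02 (adjusted p = 0.905, limma), with 1205 control reads and 1116 and 1194 dIWS1 reads. *ZBTB4*, a zinc finger protein that binds methylated CpG, was lowest at −0.77 (adjusted p = 1.24e-07, limma). Of 3 enzymes of H3K36 methylation, the histone mark that the DNMT3 enzymes read, all 3 were lower. Their log2 ratios were −0.61 (*SETD2*), −0.61 (*NSD3*, listed as *WHSC1L1*) and −0.72 (*NSD1*). These were the only ones with reads of 5 enzymes named for that list. Relative to each column's median gene, 0 of the 3 enzymes and 0 of the 8 readers were called lower, and 1 reader (*MBD4*) was higher. With spike-in scaling 64.4% of all genes were called lower, the background for each list count here and below.

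Of 7 cofactors of maintenance methylation, 2 were lower and 5 not called, with a median of −0.25. The lower ones were *USP7*, a deubiquitinase that binds DNMT1 (−0.37, adjusted p = 0.0204, limma), and *LIG1*, the replicative DNA ligase (−0.73, adjusted p = 5.92e-07, limma). The highest was *PCLAF*, a partner of the sliding clamp PCNA listed as *KIAA0101*, at −0.05 (adjusted p = 0.764, limma).

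Of 12 base excision repair genes, 6 were lower and 6 not called, with a median of −0.37. *SMUG1*, another uracil glycosylase, was the lowest gene in any list at −1.11 (adjusted p = 5.97e-15, limma), with 838 control reads and 372 and 363 dIWS1 reads. *NEIL3*, a glycosylase for oxidized bases, was highest at −0.09 (adjusted p = 0.565, limma).

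Among the 10 cofactor and partner genes of the TET enzymes, 7 were lower and 3 not called (*IDH1*, *IDH3A* and *CXXC4*), with a median of −0.48. *D2HGDH*, which removes the TET inhibitor D-2-hydroxyglutarate, was lowest at −1.07 (adjusted p = 1.29e-13, limma), and *IDH3A*, a subunit of mitochondrial isocitrate dehydrogenase, was highest at −0.12 (adjusted p = 0.416, limma). Among the 10 genes that supply S-adenosylmethionine, the methyl donor, 7 were lower and 3 not called (*MAT2A*, *MAT2B* and *MTRR*), with a median of −0.47. *MAT2B*, the regulatory subunit of methionine adenosyltransferase, was highest at 0.04 (adjusted p = 0.772, limma).

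Relative to each column's median gene, the genes called lower in these lists included *SMUG1* (−0.70), *D2HGDH* (−0.65), *IDH3G* (−0.51) and *ADK* (−0.25). Those called higher were *MAT2B* (0.46), *MBD4* (0.43), *PCLAF* (0.36, as *KIAA0101*) and *NEIL3* (0.32), although with spike-in scaling none of the 4 was called in either direction.

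**Figure D4:**
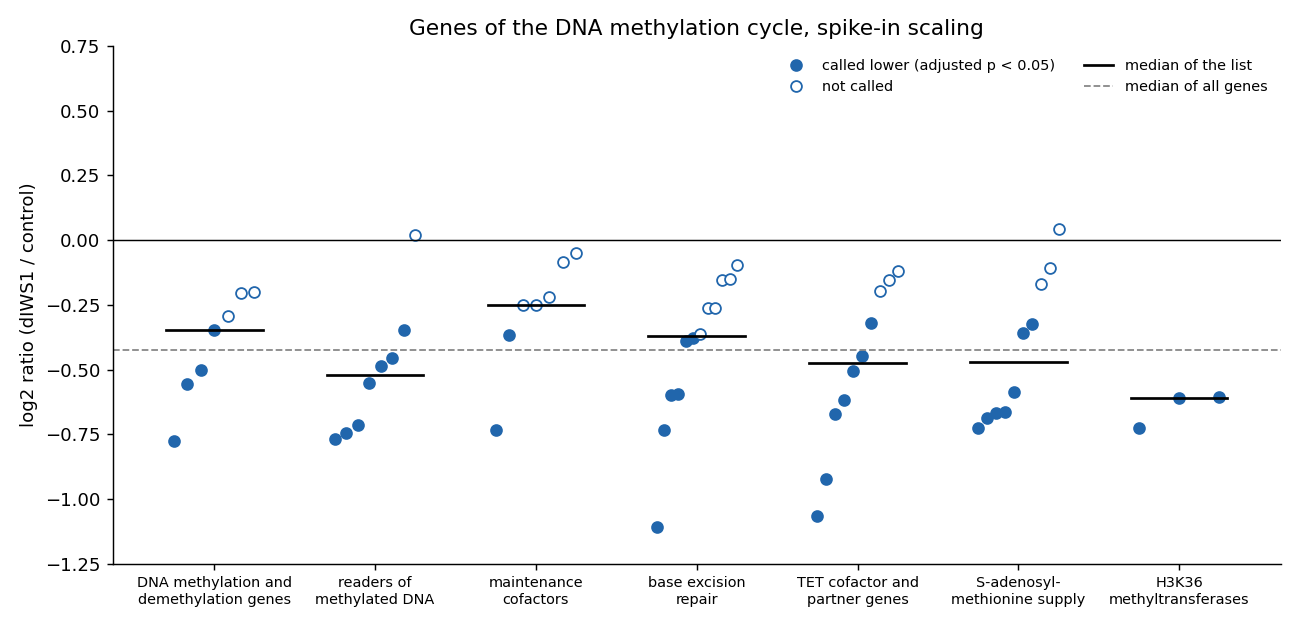
Log2 ratio (dIWS1/control, spike-in scaling) of the 7 members and of the genes in 6 lists around the methylation cycle. Each point is 1 gene, filled where called lower at an adjusted p under 0.05, black bars are list medians from −0.61 to −0.25, and the dashed line is the median of all genes at −0.43; 0 genes were called higher, and points above the dashed line lie above 0 once recentred.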

How the data were processed

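TT-seq was analysed from K562 cells with an N-terminal dTAG on IWS1, described as 2 control and 2 dIWS1 libraries (biological duplicates), of which 3 different columns, 1 of them control, could be recovered. The authors aligned unique read pairs with STAR 2.6.0 to GRCh38 with spike-in sequences, counted them per RefSeq gene with respect to strand, removed overlapping genes and genes under an RPK threshold, and fitted DESeq2 with spike-in size factors. The deposited signal is a mean normalized count per gene, averaged over libraries after spike-in scaling. The deposited log2 fold change, its standard error, Wald statistic, p-value and adjusted p-value hold the authors' own comparison. None of these values is printed. The log2 fold change was used only to tell which recovered columns were dIWS1 (its direction, dIWS1/control, comes from the legend of the study), that the control column enters the mean 2 times, and to check reads of genes with several solutions. The other comparison columns were not used.

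Reads per column were recovered by writing each mean as whole multiples of 3 steps. Of 10136 genes with a mean above 0, 9620 had 1 solution. Of the 516 others, 506 were kept because only 1 of their solutions had the dIWS1 columns within 1 log2 unit of each other and within 3 of the control, and 10 were left out.

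The 10126 genes were fitted with limma 3.58.1 (voom, R 4.3.3), offset 0.5 reads, library sizes set by the size factors, 1 control column against 2 dIWS1 columns, and Benjamini-Hochberg adjustment over all of them (threshold 0.05). The steps were tested on simulated data. At 2262 to 9295 reads per member and column, counting error was at most 0.04 on the log2 scale. Gene spans, matched for 10098 genes, and promoters came from RefSeq (GRCh38.p14) with Python 3.11.15, numpy 2.4.6, pandas 2.3.3, numba 0.67.0 and matplotlib 3.10.9.

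The genes, lists and tests were chosen with earlier results of these data known. The named genes were the members, *IWS1*, and the highest and lowest gene of each list, of which 1 is not reported here. Other list genes, and the marker *LYZ*, were named for their place in a count after their values were seen. Alternatives were other scalings, filters, offsets, thresholds, a minimum change and the control entered 2 times. Recentring each column on its own median was added after the values were seen.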

Additional observations from a re-analysis of the deposited data

How the results depend on the processing

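With scaling by total reads, recentring on the common median gene (both planned) and recentring each dIWS1 column on its own median (added after the data were seen), in that order, genes called lower went from 6523 to 1132, 527 and 539, genes called higher from 11 to 1535, 270 and 329, and members called lower from 4 to 1, 0 and 1. In the same order the log2 ratio turned positive for *DNMT3B* (0.24, 0.21, 0.21), *UHRF2* (0.15, 0.12, 0.12), *TET2* (0.095, 0.065, 0.067) and *TDG* (0.24, 0.21, 0.21), by the construction of these scalings. *DNMT1* (−0.060, −0.090, −0.088) and *TET3* (−0.12, −0.15, −0.14) stayed below 0 but were no longer called, and *TET1* lost its call only under the common recentring (−0.36, adjusted p = 0.117, limma). With the control column entered 2 times, which treats 1 column as 2 samples, 7874 of all 10126 genes tested were lower and 60 higher. All 7 members were among the lower genes in that setting. They included *DNMT3B* (−0.20, adjusted p = 0.0419, limma), *UHRF2* (−0.29, adjusted p = 0.0468, limma) and *TDG* (−0.20, adjusted p = 0.0289, limma).

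*TET2* was not called with an offset of 1 read (−0.35, adjusted p = 0.0981) or 5 reads (−0.35, adjusted p = 0.0994) in limma without weights. The cause was not tested. By construction, an adjusted p under 0.01 left 6 higher genes, an adjusted p under 0.1 gave 23, and a log2 change of at least 0.5 left 3750 lower and 4 higher. At an unadjusted p under 0.05, limma gave 19 higher genes. Levels per kb taken from the authors' mean were lower than in the control column, at 102 for *DNMT1*, 111 for *DNMT3B*, 29.2 for *UHRF2*, 43.5 for *TET1*, 60.6 for *TET2*, 50.9 for *TET3* and 112 for *TDG*, since that mean includes dIWS1.

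Leaving out either dIWS1 column leaves 1 column a group, which gives a value with no test. No paired analysis was possible because the recovered columns carry no replicate numbers. The control has no spread of its own, so all p-values rest on differences between the 2 dIWS1 columns, which limma pools across genes. With spike-in scaling the offset between those columns is shared by genes, so the pooled genes are not independent replicates of it.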
